A study of Mus musculus with 9 samples.

Results

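The chemokine ligands and receptors of the mouse ovary were followed over 3 groups. Members were all probes of the expression array with a single gene symbol that names a CC, CXC, CX3C or C ligand or a classical or atypical chemokine receptor with a number in its name, letter suffixes included. This name rule found 85 of 45281 probes, which belong to 57 of 19057 gene symbols on the array, and it used no measured value. Of these genes 36 are ligands and 21 are receptors by name.

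Whole ovaries of C57BL/6 mice were compared on Illumina BeadChips as wild type (WT), as a model of premature ovarian failure (POF), and as recipients of transplanted spermatogonial stem cells (SSCTR), the germline stem cells of the testis. The labels do not give how the failure was induced, whether the recipients had ovarian failure, the age of the mice, the source of the transplanted cells, or whether replicates came from separate animals. Replicate 1 of each group is computed from replicates 2 and 3 in the deposited tables, so 2 arrays per group, replicates 2 and 3, were used. If these came from 1 RNA pool, the p-values measure only the technical spread.

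Chemokines are small secreted or membrane-bound proteins that guide migrating cells, leukocytes above all, along gradients. They are grouped by the spacing of their first cysteines and act through G protein-coupled receptors, while atypical receptors bind them without G protein signalling and scavenge or transport them. In the ovary, leukocytes attracted by chemokines take part in ovulation, in the clearing of degenerating follicles and in the regression of the corpus luteum, and Cxcl12 acting through Cxcr4 guides primordial germ cells to the embryonic gonad.

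Each array had 16040 to 18041 probes above background, defined as a detection p-value under 0.05, with the lowest counts in SSCTR. The tissue was checked against its markers: all 11 oocyte genes on the array and 9 of 11 granulosa cell genes were above background on all 6 arrays. In POF, 9 of 11 oocyte genes were lower than in WT, led on the log2 scale by Nobox (-2.98) and Gdf9 (-2.77), a transcription factor and a growth factor of the oocyte. Most epithelial genes of the oviduct and ovarian surface moved the other way, with 7 of 11 tested higher in POF than in WT by limma and 0 lower. At an unadjusted p under 0.05, 8 were higher and 2 lower. Cdh1 and Epcam, of the same list, were lower in POF. On the log2 scale Cdh1 read 7.01 and 6.99 in WT and 6.61 and 6.33 in POF. Epcam read 7.57 and 7.55 in WT and at most 7.04 in POF. The list's summed intensity was 8180 to 8760 in POF, 2370 to 2490 in WT and 1770 to 1990 in SSCTR. Ovgp1, the secreted glycoprotein of the oviduct, rose by at least 6.42 and Upk1b, a uroplakin of epithelial surfaces, by 3.15. How far these shifts in tissue makeup bear on the chemokine values was not tested. In bulk ovary, fewer cells of a type and less RNA per cell cannot be told apart.

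Ligands were measured more often than receptors. Above background on at least 2 of the 6 arrays, the requirement for entering the test, were 22 of 36 ligand genes but only 7 of 21 receptor genes. On all 6 arrays, 13 ligands and 2 receptors, Cxcr4 and Cx3cr1, were above background. All 7 homeostatic ligands entered, which direct cells through tissues in the resting state, and so did 7 of 9 inflammatory CC ligands. None of the 10 CC receptors entered. The other 28 member genes did not enter: the ligands Ccl1, Ccl2, Ccl3, Ccl20, Ccl22, Ccl24, Ccl26, Ccl28, Cxcl2, Cxcl3, Cxcl11, Cxcl15, Cxcl17 and Xcl1, and the receptors Ccr1, Ccr1l1, Ccr2, Ccr3, Ccr4, Ccr6, Ccr7, Ccr8, Ccr9, Ccr10, Cxcr1, Cxcr2, Cxcr3 and Cxcr6. For 17 of these no probe was above background on any array. A probe not above background has only a bound on its level, so these genes may still be transcribed.

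**Figure D1:**
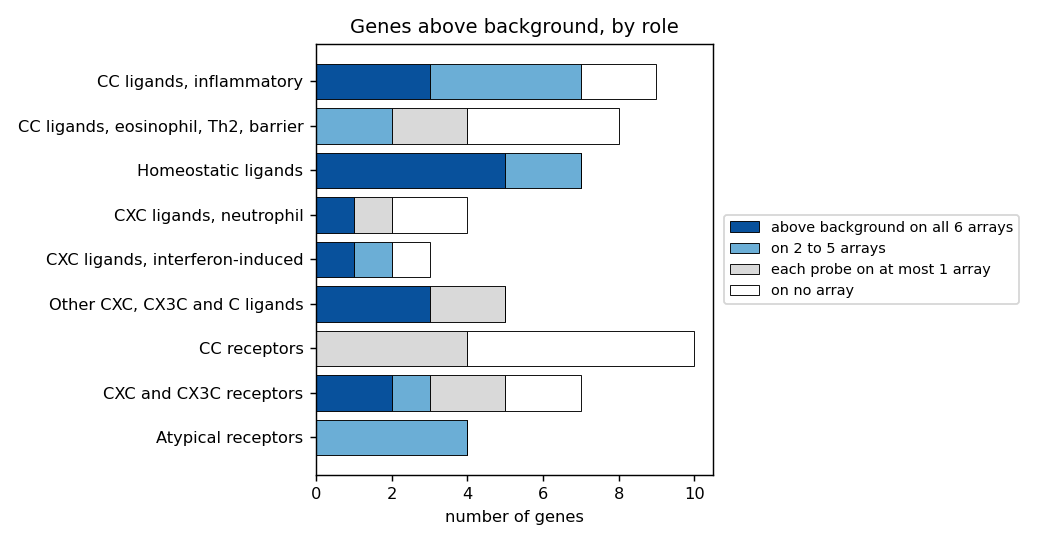
Number of chemokine genes (horizontal axis) in each role class (vertical axis), divided by how many of the 6 arrays their probes were above background on. The bar of the CC receptors holds no gene that was above background on 2 or more arrays, while all 7 homeostatic ligands and all 4 atypical receptors were.

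The same detection counts were also laid out by known pairs, which adds no separate evidence of a gap between ligands and receptors. Of 31 textbook ligand and receptor pairs among the members, listed after the values had been seen, the ligand was above background on all 6 arrays in 12. Both partners were above background on all 6 arrays in 2 pairs, Cxcl12 with Cxcr4 and Cx3cl1 with Cx3cr1. In 9 pairs a ligand above background on all 6 arrays stood beside a receptor above background on at most 1. These were Cxcl9 with Cxcr3, Cxcl16 with Cxcr6, Ccl9 with Ccr1, Ccl12 with Ccr2, Ccl27a with Ccr10, Cxcl1 with Cxcr2, and Ccl19, Ccl21a and Ccl21c with Ccr7.

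Setting POF beside WT shows how the failure model departs from wild-type ovary. Among 29 tested members, 4 rose in POF (Ackr1, Cxcl16, Cxcl10 and Ccl21a) and 2 fell (Cxcl12 and Cx3cl1), by limma with an adjusted p under 0.05 over all 13872 features. Ackr1, the decoy receptor of venules and red cells, had the largest change of the 29, 3.14-fold. These 6 of 29, or 20.7%, stand beside 11.9% of all features called in this comparison, 6.98% higher and 4.96% lower. The median log2 change was -0.01 over the 29 members and -0.03 over all features. The count fell to 2 without POF replicate 3 or WT replicate 2, and to 3 without WT replicate 3.

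SSCTR with POF asks how recipients differ from the failure model. Here 4 of 29 members fell in SSCTR, namely Ackr1, Cxcl10, Cxcl16 and Cxcl9. That is 13.8% of the members tested, against 12.6% of all features called, 7.25% of them lower and 5.33% higher in SSCTR. By limma 0 members were higher in SSCTR than in POF past the adjusted threshold; at an unadjusted p under 0.05, 2 were higher, Ccl7 and Cxcl1. The median change was 0.06 over the members and 0.03 over all features. Since POF serves both comparisons, a gene high in POF appears as a rise in the first and as a fall in the second.

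SSCTR with WT asks how far the recipients differ from wild-type ovary. In this comparison 2 of 29 members rose in SSCTR, Ccl21a and Ccl6, or 6.9%, against 3.31% of all features called, 1.81% higher and 1.5% lower. The limma fit called 0 members lower in SSCTR; at an unadjusted p under 0.05 there were 8 lower and 6 higher. Median changes were -0.02 for the members and -0.01 for all features. Without any 1 of the WT or SSCTR arrays limma called 0 members, with 8 to 14 at an unadjusted p under 0.05, and without either POF array it called neither Ccl21a nor Ccl6 but Cxcl12, lower in SSCTR.

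**Figure D2:**
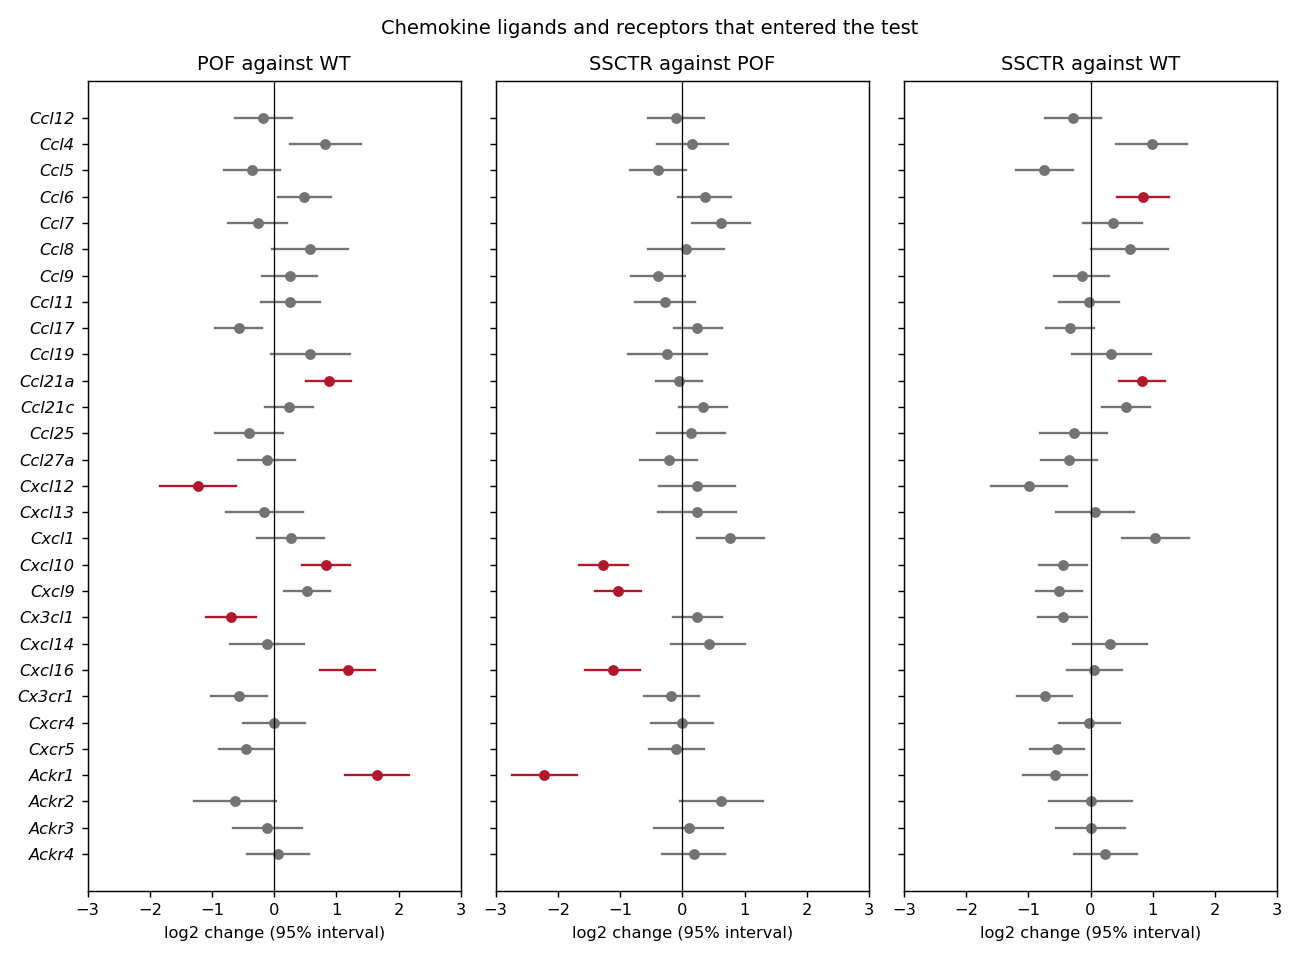
Log2 change (horizontal axis) with its 95% interval for each of the 29 members that entered the test, in 3 panels, 1 for each comparison. Red marks an adjusted p under 0.05: 6 members in POF against WT, 4 in SSCTR against POF, all of them lower, and 2 in SSCTR against WT, both higher.

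The interferon-induced CXC ligands Cxcl9 and Cxcl10, which attract activated T and NK cells through Cxcr3, were brightest in POF and dimmest in SSCTR. Values are log2 intensities after background correction, with replicate 2 before replicate 3. Cxcl9 was at 6.18 and 6.18 in WT, at 5.74 and 5.62 in SSCTR, and at 6.71 and 6.71 in POF. Its 3 groups did not overlap, and it was 2.04-fold lower in SSCTR than in POF (log2 change -1.03 ± 0.16 SE, n = 2 arrays a group, limma adjusted p = 0.00419). Under alternative settings that change ran from -1.09 to -0.49. Cxcl9 in POF against WT stood at 0.53 on the log2 scale (adjusted p = 0.0703), and in SSCTR against WT at -0.50 (adjusted p = 0.152); neither passed.

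Cxcl10 read 5.18 and 5.40 in WT, 4.80 and 4.89 in SSCTR, and 6.06 and 6.17 in POF. Only 1 of its 2 SSCTR arrays was above background, and no group overlapped another. Cxcl10 rose 1.77-fold in POF over WT (log2 change 0.83 ± 0.17 SE, limma adjusted p = 0.0167). It was at least 2.39-fold lower in SSCTR than in POF, "at least" meaning here and below that the dimmer group is set at the background level where it lies under it (limma adjusted p = 0.00198). Both sizes hold for the main setting only. Under alternative settings the log2 change ran from 0.33 to 0.94 in POF over WT and from -1.33 to -0.46 in SSCTR against POF. The SSCTR value against WT was -0.44 on the log2 scale and did not pass (limma adjusted p = 0.224). The POF call over WT depended on single arrays: adjusted p = 0.108 without WT replicate 2, adjusted p = 0.0642 without POF replicate 2 and adjusted p = 0.0970 without POF replicate 3. Cxcl11, by name the third ligand of Cxcr3, was not among the members placed as protein-coding genes. Neither Cxcl11 nor Cxcr3 was above background on any array.

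**Figure D3:**
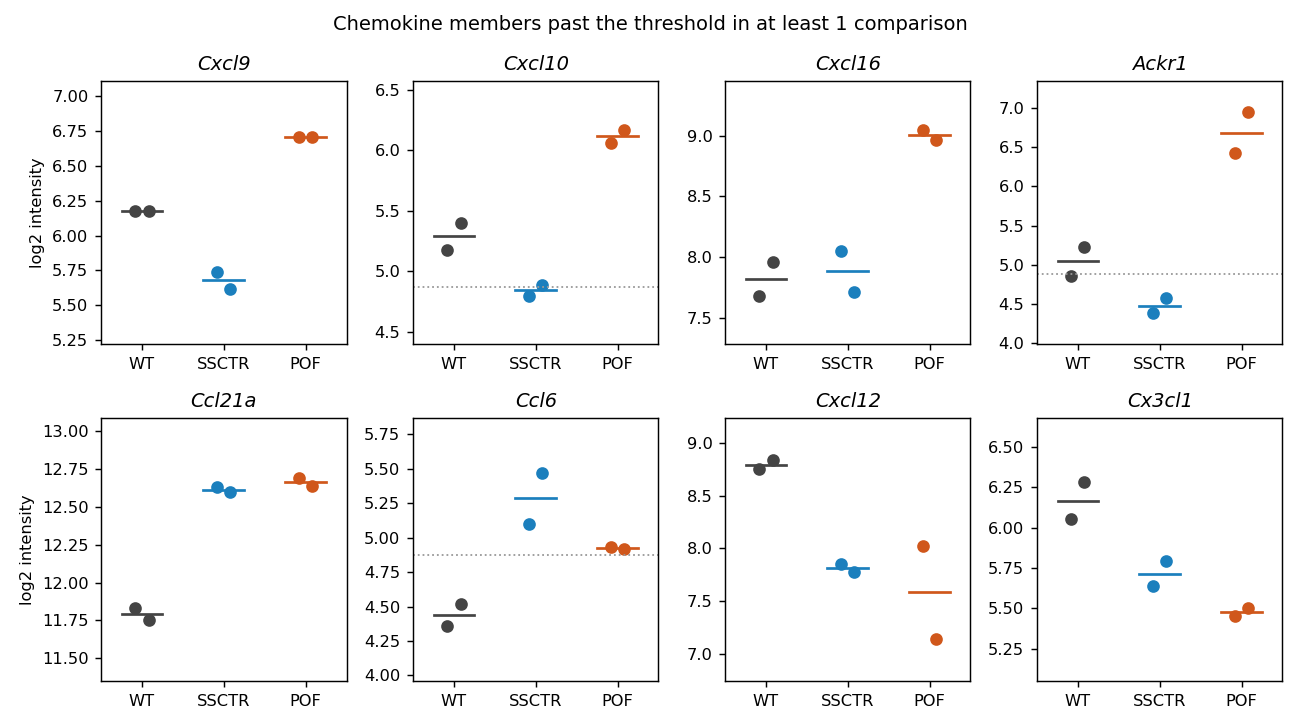
Log2 intensity (vertical axis, scaled separately for each gene) of the 8 members called in at least 1 comparison, with 1 point for each of the 2 arrays and a bar at the mean of each group. A dotted line at 4.87, the highest of the arrays' lowest detected signals, is drawn where it lies in range; Cxcl9, Cxcl10, Cxcl16 and Ackr1 are highest in POF, Ccl21a is lowest in WT and Cxcl12 and Cx3cl1 are highest in WT.

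Cxcl9 and Cxcl10 lie close together in the genome, with only Art3 between them among protein-coding genes. Their promoters are shown beside those of Ackr1 and Cxcl12, the members with the largest rise and fall in POF against WT. These genes had the largest called changes among members with a promoter given. For Cxcl16, whose largest change exceeded that of Cxcl9, no promoter was given. The windows are RefSeq sequence of GRCm38.p6, from 250 bases before the start of the gene to 50 after it, 5′ to 3′ on the gene's strand. They lie at chr5:92328030-92328329, minus strand (Cxcl9), chr5:92348840-92349139, minus strand (Cxcl10), chr1:173333454-173333753, minus strand (Ackr1), and chr6:117168285-117168584, plus strand (Cxcl12). Capitals mark matches, on either strand, to 3 motifs: NF-kB, read as GGGA, any 4 bases and CC; interferon response, read as TTTC, any 2 bases and TTTC; and AP-1, read as TGANTCA with N any base.
Cxcl9: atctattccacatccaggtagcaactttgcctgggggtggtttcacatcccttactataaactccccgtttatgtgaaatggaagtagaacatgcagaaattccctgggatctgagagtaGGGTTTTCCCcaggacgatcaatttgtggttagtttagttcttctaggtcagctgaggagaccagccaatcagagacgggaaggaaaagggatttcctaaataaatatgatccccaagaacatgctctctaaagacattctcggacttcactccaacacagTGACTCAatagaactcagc
Cxcl10: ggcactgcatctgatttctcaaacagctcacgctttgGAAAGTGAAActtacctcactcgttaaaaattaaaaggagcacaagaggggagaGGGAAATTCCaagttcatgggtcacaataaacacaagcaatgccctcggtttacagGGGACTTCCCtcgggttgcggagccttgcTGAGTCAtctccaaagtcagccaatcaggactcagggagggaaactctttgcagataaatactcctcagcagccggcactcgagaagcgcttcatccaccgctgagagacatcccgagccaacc
Ackr1: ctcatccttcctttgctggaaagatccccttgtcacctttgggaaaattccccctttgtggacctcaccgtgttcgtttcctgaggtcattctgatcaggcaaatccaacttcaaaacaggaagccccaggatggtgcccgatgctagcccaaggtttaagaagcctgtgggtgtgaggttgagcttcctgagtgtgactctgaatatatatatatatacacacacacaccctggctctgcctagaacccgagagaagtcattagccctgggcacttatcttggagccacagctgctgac
Cxcl12: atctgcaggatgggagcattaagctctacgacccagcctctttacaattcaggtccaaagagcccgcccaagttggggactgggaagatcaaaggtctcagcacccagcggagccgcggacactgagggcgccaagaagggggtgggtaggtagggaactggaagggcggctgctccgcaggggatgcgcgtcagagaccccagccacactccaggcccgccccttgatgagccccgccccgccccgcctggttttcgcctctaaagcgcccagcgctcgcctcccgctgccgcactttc

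The Cxcl10 window held all 3 motifs: NF-kB matches at -159 to -150 and at -103 to -94, an interferon response match at -213 to -204 and an AP-1 match at -74 to -68, counted from the start, with -1 the base before it. In the Cxcl9 window an NF-kB match lay at -130 to -121 and an AP-1 match at 32 to 38, and the windows of Ackr1 and Cxcl12 held none of the 3. Of 47 windows given for 43 member genes, 20 held the NF-kB motif (42.6%), against 20.7% of all 32851 windows. The interferon response motif was in 3 of the 47 (6.38%), against 3.44% of all, and the AP-1 motif in 8 (17%), against 7.81%. These shares were not tested, gene copies share sequence, and a match describes letters, not binding. The Cxcl12 window had a GC content of 64.7% and the Cxcl9 window 44.3%, around a median of 52.7% for all windows.

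Among 18 tested interferon targets outside the chemokines, 2 rose and 1 fell in POF over WT, with a median log2 change of -0.03. Rsad2, an antiviral enzyme, rose by 1.24 and Cd274, the checkpoint ligand PD-L1, by 0.77, while Mx2, an antiviral GTPase, fell by 0.72. In SSCTR against POF 8 fell and 0 rose by limma, with a median of -0.65, led by Rsad2 (-2.10) and Cd274 (-1.11); at an unadjusted p under 0.05, 11 were lower and 0 higher. In SSCTR against WT 4 fell, with a median of -0.64, led by Tap1 (-0.92), the peptide transporter of antigen presentation, and Psmb8 (-0.90), a subunit of the immunoproteasome. The summed intensity of the list was 6810 to 7110 in WT, 4000 to 4240 in SSCTR and 7170 to 7650 in POF, so the list as a whole was dim in SSCTR and near WT in POF. The 8 calls in SSCTR against POF became 3 without SSCTR replicate 2, SSCTR replicate 3 or POF replicate 3, and 4 without POF replicate 2. The 4 in SSCTR against WT became 1 without either POF array and 0 without any 1 of the others (limma; 12 were lower at an unadjusted p under 0.05 with all arrays), and the 3 in POF against WT became 1 without either WT array.

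Of 13 tested NF-kB targets, 5 rose in POF over WT and 1 fell, with a median log2 change of 0.20. Lcn2, an iron-withholding secreted protein, rose by 3.35 and Vcam1, an adhesion molecule for leukocytes, by 1.75. Saa3, an acute phase protein, fell by 1.20. In SSCTR against POF 6 fell, with a median of -0.47, among them Lcn2 (-3.30) and Vcam1 (-1.58), and in SSCTR against WT Saa3 alone was called (-1.19), by limma with all arrays but not without any 1 of the WT or SSCTR arrays. The 6 calls in SSCTR against POF became 3 without SSCTR replicate 3. Il6, Tnf, Ptgs2, Sele, Birc3, Nfkb2 and Tnfaip3 did not enter the test. The list's summed intensity, 4820 to 4890 in POF, lay above the 2890 to 2940 of WT and the 2860 to 3010 of SSCTR. Much of that difference came from Lcn2, at 10.48 and 10.56 in POF, 7.21 and 7.12 in WT and 7.33 and 7.11 in SSCTR on the log2 scale.

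**Figure D4:**
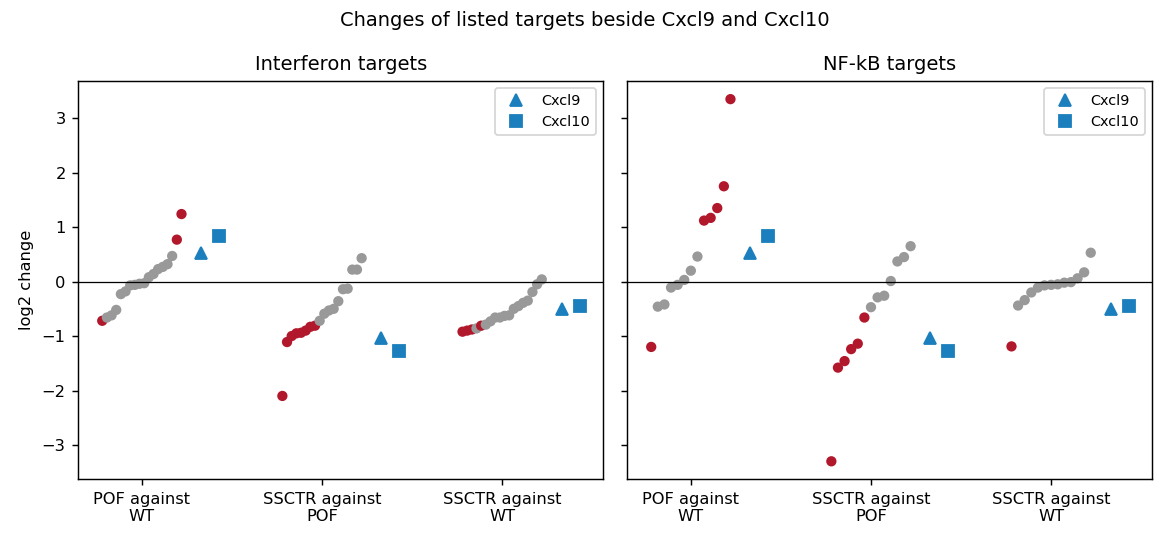
Log2 change (vertical axis) of each tested gene of the interferon target list (left, 18 genes) and the NF-kB target list (right, 13 genes) in the 3 comparisons, red where the adjusted p was under 0.05. Triangles and squares give Cxcl9 and Cxcl10; most interferon targets lie below 0 in both SSCTR comparisons, and the highest NF-kB target in POF against WT is Lcn2 at 3.35.

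Markers of some cells that these ligands come from or attract moved as well, not all in 1 direction. Of 7 tested mast cell markers, 4 fell in SSCTR against WT with all arrays, and in POF over WT 5 fell and 1 rose. Of 4 B and plasma cell markers 2 fell and 0 rose by limma, calls that rested on single arrays. At an unadjusted p under 0.05, 3 of these were lower and 0 higher. Of 7 dendritic cell markers 2 rose and 1 fell. Of 18 tested macrophage markers, 8 rose in POF over WT and 10 fell in SSCTR against POF, and the summed intensity of the list was 14200 to 17900 in POF, 5790 to 5990 in WT and 5620 to 6100 in SSCTR. Gpnmb, a glycoprotein of phagocytes, rose by 3.14 on the log2 scale in POF over WT, and Fcer1g, a signalling chain of Fc receptors, by 2.00, and in SSCTR against POF they fell by 2.28 and 3.29. In POF over WT the macrophage-defining receptors Csf1r and Adgre1 stood at 0.34 (limma adjusted p = 0.405) and 0.10 (limma adjusted p = 0.888). Itgam, Cd163 and Spi1 did not enter. Of 8 T and NK cell markers, 2 rose in POF over WT and 2 fell in SSCTR against POF. Cd3g, a chain of the T cell receptor complex, rose by 0.74 in POF over WT and fell by 1.49 in SSCTR against POF, and Il7r, the receptor of interleukin-7, rose by at least 0.99 in POF over WT, while Cd3d, another chain of that complex, fell by at least 0.98 in SSCTR against POF. The summed T and NK intensity was 2330 to 2360 in POF, 2690 to 3040 in WT and 2510 to 2560 in SSCTR, but 81.6% to 91.0% of it was Cd8b1. Without Cd8b1 the other 7 genes were summed at 416 to 434 in POF, 282 to 333 in WT and 230 to 248 in SSCTR. Cd4, Cd8a, Gzmb, Klrb1c and Ncr1 did not enter. Without POF replicate 3 the macrophage calls became 5 in POF over WT and 6 in SSCTR against POF. The T and NK calls became 0 in POF over WT without any 1 of the WT or POF arrays (limma; 2 were higher at an unadjusted p under 0.05 with all arrays), and 1 in SSCTR against POF without either POF array. The part of these cells in the ligand values was not tested.

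The transmembrane ligand Cxcl16, which is shed from the surface of macrophages and other cells and also takes up oxidised lipoprotein, was high in POF alone. It measured 7.68 and 7.96 in WT, 8.05 and 7.71 in SSCTR, and 9.05 and 8.96 in POF. Both POF arrays lay above all 4 others, and WT and SSCTR overlapped. Cxcl16 rose 2.27-fold in POF over WT (log2 change 1.18 ± 0.19 SE, limma adjusted p = 0.00575) and was 2.18-fold lower in SSCTR than in POF (-1.12 ± 0.19 SE, limma adjusted p = 0.00635). SSCTR differed from WT by 0.06 on the log2 scale, with a 95% interval of -0.38 to 0.50. Without POF replicate 2 the SSCTR call against POF had adjusted p = 0.0507.
A further, dimmer Cxcl16 probe read 4.88 and 4.88 in WT, 5.46 and 4.54 in SSCTR, and 6.12 and 5.76 in POF, so it too was highest in POF. Cxcr6, the receptor of Cxcl16 on T and NK cells, was above background on no array.

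Fractalkine, Cx3cl1, a membrane-anchored ligand of endothelium and epithelium that holds and attracts Cx3cr1-bearing monocytes, was highest in WT. It was at 6.05 and 6.28 in WT, 5.64 and 5.79 in SSCTR, and 5.45 and 5.50 in POF, with no overlap between groups. Cx3cl1 fell 1.62-fold in POF against WT (log2 change -0.69 ± 0.17 SE, limma adjusted p = 0.0353). Its other contrasts did not pass, at 0.24 for SSCTR against POF (adjusted p = 0.422) and -0.45 for SSCTR against WT (adjusted p = 0.221). The call was lost without WT replicate 2 (adjusted p = 0.0781), WT replicate 3 (adjusted p = 0.178), POF replicate 2 (adjusted p = 0.136) or POF replicate 3 (adjusted p = 0.122).
The receptor Cx3cr1, carried by monocytes and tissue macrophages, read 7.10 and 6.63 in WT, 6.09 and 6.16 in SSCTR, and 6.30 and 6.30 in POF. Both WT arrays lay above the other 4, but neither difference passed: -0.57 in POF (limma adjusted p = 0.102) and -0.74 in SSCTR (limma adjusted p = 0.0856). The macrophage marker sum given above was highest in POF, where Cx3cr1 was not.
Cxcl14, a ligand of epithelium and stroma, was above background on all 6 arrays and not called. Its levels ran from 7.62 to 8.47, and its log2 changes from -0.11 in POF against WT to 0.42 in SSCTR against POF. A dimmer Cxcl14 probe, also above background on all 6 arrays, ran from 5.43 to 6.53. Its changes were -0.61 in POF against WT, 0.59 in SSCTR against POF and -0.03 in SSCTR against WT. Xcl1 and Cxcl17, the remaining ligands of this class, did not enter.

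Ccl21a, a homeostatic ligand, rose in both POF and SSCTR over WT. This ligand of lymphatic endothelium and lymphoid stroma draws dendritic cells and naive T cells through Ccr7. Its log2 intensity was 11.83 and 11.75 in WT, 12.63 and 12.60 in SSCTR, and 12.69 and 12.64 in POF. Both WT arrays were low and all 4 others close together. The rise over WT was 1.84-fold in POF (log2 change 0.88 ± 0.16 SE, limma adjusted p = 0.00979) and 1.77-fold in SSCTR (0.83 ± 0.16 SE, limma adjusted p = 0.0307). SSCTR and POF differed by -0.05, with a 95% interval of -0.42 to 0.32. In POF against WT the call of Ccl21a ended without any 1 of the POF or WT arrays: adjusted p = 0.0598 without POF replicate 2, adjusted p = 0.0562 without POF replicate 3, adjusted p = 0.0512 without WT replicate 2 and adjusted p = 0.0635 without WT replicate 3. The call in SSCTR against WT ended without any 1 of the 6 arrays: adjusted p = 0.141 without WT replicate 2, adjusted p = 0.149 without WT replicate 3, adjusted p = 0.138 without SSCTR replicate 2, adjusted p = 0.140 without SSCTR replicate 3, adjusted p = 0.0539 without POF replicate 2 and adjusted p = 0.0540 without POF replicate 3.
Ccl21c is a near-identical copy of Ccl21a, so which copy each probe measured is uncertain. Its brighter probe read 10.77 and 10.64 in WT, 11.30 and 11.25 in SSCTR, and 11.05 and 10.84 in POF. The dimmer probe read 9.74 and 9.86 in WT, 10.57 and 10.46 in SSCTR, and 10.52 and 10.43 in POF. On both probes WT was lowest, yet their size differed: POF over WT stood at 0.24 on the tested, brighter probe (limma adjusted p = 0.416) and at 0.68 on the other.
Lymphatic endothelium markers were summed at 1490 in WT, 1710 to 1920 in SSCTR and 2330 to 2560 in POF, and without Pdpn, their brightest, at 548 to 551, 785 to 809 and 675 to 933. Of 6 tested, 1 rose in POF over WT, Pdpn, a membrane glycoprotein of lymphatic vessels also found on epithelium and stroma (0.79, limma adjusted p = 0.0373), a call that did not hold without either WT array or without POF replicate 3. The defining markers Lyve1 and Prox1 were each above background on 2 of 6 arrays. Their part in the Ccl21a values was not tested.

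Ccl19, the other ligand of Ccr7, and Ccl27a, a ligand of skin-homing T cells through Ccr10, were above background on all 6 arrays and not called. Ccl19 read 5.08 and 5.01 in WT, 5.79 and 4.97 in SSCTR, and 5.86 and 5.38 in POF, with both WT values inside the range of SSCTR. Ccl27a ran from 7.75 to 8.31, with log2 changes of -0.12, -0.22 and -0.35 in POF against WT, SSCTR against POF and SSCTR against WT. A dimmer Ccl27a probe, also above background on all 6 arrays, ran from 5.47 to 6.17. Its changes in the same order were -0.20, 0.30 and 0.11, so the probes differed in direction in both SSCTR comparisons. Ccl25, a thymus and gut ligand, and Cxcl13, which draws B cells, stayed between 4.39 and 5.26 and were above background on 4 and 2 arrays.

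Cxcl12, which retains haematopoietic cells in the marrow and guides germ cells through Cxcr4, fell in POF. It was at 8.75 and 8.84 in WT, 7.85 and 7.77 in SSCTR, and 8.02 and 7.14 in POF. Both WT arrays stood above the other 4, and the POF arrays lay on either side of SSCTR. Cxcl12 fell 2.32-fold in POF against WT (log2 change -1.22 ± 0.27 SE, limma adjusted p = 0.0208). SSCTR against WT stood at -0.99 (adjusted p = 0.0935) and SSCTR against POF at 0.23 (adjusted p = 0.636). The POF fall rested on single arrays: without POF replicate 3 it was -0.77 (adjusted p = 0.0827), and without WT replicate 2 or 3 the adjusted p = 0.0868 or 0.0997.
Other Cxcl12 probes were less far apart. One read 7.12 and 7.60 in WT, 6.57 and 6.77 in SSCTR, and 6.59 and 6.52 in POF, a POF difference of -0.81. The third probe was at 7.54 and 8.26 in WT, 7.43 and 7.34 in SSCTR, and 7.54 and 7.18 in POF, a difference of -0.54, and there WT and POF met at 7.54. Stroma and smooth muscle markers, whose cells make much of a tissue's Cxcl12, were summed at 21300 to 22000 in WT, 22300 to 22900 in SSCTR and 24700 to 25400 in POF, of which 75.9% to 81.8% was Acta2, an actin of smooth muscle; without it the sums were 4480 to 5130, 4070 to 4300 and 4720 to 5960. Of 11 tested, 2 fell in POF against WT, Lum (-0.88), a collagen-binding proteoglycan, and Tagln (-0.84), a smooth muscle actin-binding protein, and neither call held without any 1 of the WT or POF arrays; the markers' part in the Cxcl12 values was not tested.

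The inflammatory CC ligands draw monocytes, macrophages and T cells. Of the 7 tested, 0 were called in POF against WT, 0 in SSCTR against POF and 1 in SSCTR against WT by limma. Over all features 11.9%, 12.6% and 3.31% were called in these comparisons. Ccl6, a ligand of Ccr1 in the mouse, read 4.36 and 4.52 in WT, below background on both arrays, 5.10 and 5.47 in SSCTR, and 4.93 and 4.92 in POF. The groups did not overlap, and Ccl6 rose at least 1.47-fold in SSCTR over WT (limma adjusted p = 0.0492). That call had the highest adjusted p of the 12. It passed under 1 of 15 alternative settings, the use of all 9 deposited columns, and its adjusted p reached 0.252.
Ccl4, an inflammatory ligand made by macrophages and T cells, was at 5.71 and 6.14 in WT, 6.82 and 6.99 in SSCTR, and 6.42 and 7.07 in POF. WT was lowest, by 0.82 against POF (limma adjusted p = 0.0695) and by 0.98 against SSCTR (limma adjusted p = 0.0784), and neither passed. Ccl9, another mouse Ccr1 ligand, stayed between 7.11 and 7.71, and Ccl12, a mouse monocyte attractant of Ccr2, between 5.02 and 5.50.
Ccl5, a T cell attractant, was at 5.55 and 5.61 in WT, 4.90 and 4.76 in SSCTR, and 5.47 and 4.99 in POF. SSCTR was lowest, 0.75 below WT as measured (log2 change -0.75, limma adjusted p = 0.0896), and 1 of its 2 arrays was above background. Ccl7 and Ccl8, monocyte attractants of the same gene cluster, ranged from 4.37 to 5.54 and were not called. Ccl2, the main ligand of Ccr2, and Ccl3 were above background on no array.

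Of the neutrophil attractants, which act through Cxcr2, Cxcl1 alone entered. It read 7.12 and 6.55 in WT, 7.86 and 7.89 in SSCTR, and 7.32 and 6.89 in POF. Both SSCTR arrays were above the other 4, while WT and POF overlapped. The log2 change was 1.04 ± 0.23 SE in SSCTR against WT (limma adjusted p = 0.0519) and 0.77 ± 0.23 SE in SSCTR against POF (limma adjusted p = 0.0662), so neither passed. The neutrophil markers were summed at 222 to 225 in SSCTR, 362 to 417 in WT and 2910 to 4200 in POF, and were thus lowest where Cxcl1 was highest. Ltf, the brightest of them, made up 18.6% to 82.1% of these sums. Without it the other 3 genes were summed at 180 to 182 in SSCTR, 231 to 329 in WT and 557 to 752 in POF. Ltf, a granule protein also secreted by reproductive epithelium, fell by 1.34 on the log2 scale in SSCTR against WT and rose by 4.74 in POF against WT. The fall was not called without WT replicate 3, SSCTR replicate 2 or SSCTR replicate 3. S100a8, a calcium-binding protein of neutrophils and monocytes, rose by 1.37 in POF against WT, though not without WT replicate 3 or POF replicate 2, and fell by 2.07 in SSCTR against POF. The neutrophil genes Camp, Ngp, Mpo, Mmp8 and Csf3r did not enter.
Among the ligands for eosinophils, Th2 cells and barrier tissues, Ccl11 and Ccl17 entered. Ccl11, an eosinophil attractant, lay between 4.73 and 5.27. Ccl17, a ligand of Ccr4, was above background in WT only, at 4.94 and 4.75, and entered the test through those arrays alone. Its POF difference from WT was -0.57 as measured but as a bound only at least 1.09-fold (limma adjusted p = 0.0626). Since Ccl17 entered through its high group, this test is not separate from its detection. Cx3cl1, Ccl17 and Ccl22 are neighbours in the genome, as are Ccl6, Ccl9 and Ccl3, and Ccl21a and Ccl19. In all, 30 of 56 placed members lie next to another member among protein-coding genes.

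Only 3 classical receptors, Cxcr4, Cxcr5 and Cx3cr1, entered the test, and none was called. Over all features 11.9%, 12.6% and 3.31% were called in POF against WT, SSCTR against POF and SSCTR against WT. With such shares 3 genes are too few to show a lack of change. Cxcr4, the receptor of Cxcl12, read 5.43 and 5.66 in WT, 5.45 and 5.62 in SSCTR, and 5.27 and 5.81 in POF. The 3 groups overlapped, and the POF difference from WT was -0.01, with a 95% interval of -0.50 to 0.49. Cxcr5, the receptor of Cxcl13 on B cells, was above background on both WT arrays (5.14 and 5.18), on neither SSCTR array (4.56 and 4.67) and on 1 POF array (4.50 and 4.92). Its differences did not pass.

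The atypical receptor Ackr1 had the largest change of the 29 members in POF against WT and in SSCTR against POF. Also known as the Duffy antigen, it carries inflammatory CC and CXC ligands across the endothelium of venules. It measured 4.85 and 5.23 in WT, 4.38 and 4.57 in SSCTR, below background on both arrays, and 6.43 and 6.95 in POF. No groups overlapped, and POF was far above the rest. Ackr1 rose 3.14-fold in POF over WT (log2 change 1.65 ± 0.23 SE, limma adjusted p = 0.00257) and was at least 3.58-fold lower in SSCTR than in POF (limma adjusted p = 0.000432). These sizes hold for the main setting only. Under alternative settings the log2 change ran from 0.71 to 1.91 in POF over WT and from -2.48 to -0.91 in SSCTR against POF. The SSCTR difference from WT was -0.57 as measured and did not pass (adjusted p = 0.235).
Markers of vascular endothelium were summed at 4260 to 4340 in WT, 4710 to 4830 in SSCTR and 4990 to 5040 in POF. Without Esam, the brightest of them, the sums were 3300 to 3340, 3660 to 3820 and 3550 to 3660, highest in SSCTR. Of 12 tested, 2 were higher in POF than in WT, Plvap (1.34), a protein of fenestrated endothelium, and Tek (1.15), the angiopoietin receptor, and 1 was lower, Eng (-0.80), a coreceptor for TGF-beta. Plvap also fell in SSCTR against POF (-1.49), while Kdr (0.69) and Eng (0.65) rose. Without any 1 of the SSCTR or POF arrays the Kdr and Eng calls were lost and 1 call of the 3, Plvap, was left. In POF against WT the Plvap call held without each array in turn, while those of Tek and Eng did not. The part of endothelium in the Ackr1 values was not tested.
Ackr2, which degrades inflammatory CC ligands, Ackr3, which scavenges Cxcl12, and Ackr4, which scavenges the ligands of Ccr7, ranged from 4.27 to 5.67. They were above background on 5, 3 and 2 of the 6 arrays, and none was called.

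Chemokine-related genes outside the name rule included the atypical receptor homologue Ccrl2, which presents chemerin and was the most changed of 7 tested. Ccrl2 read 6.95 and 6.84 in WT, 5.82 and 5.94 in SSCTR, and 7.69 and 8.19 in POF. Like Ackr1 and Cxcl10, it was highest in POF and lowest in SSCTR. It rose 2.06-fold in POF over WT (limma adjusted p = 0.013), was 4.17-fold lower in SSCTR than in POF (limma adjusted p = 0.00038) and 2.02-fold lower in SSCTR than in WT (limma adjusted p = 0.0353). Cd74, the receptor of Mif and chaperone of class II antigen presentation, rose by 0.76 in POF over WT and fell by 1.20 in SSCTR against POF on the log2 scale. Cklf, a chemokine-like factor, fell by 0.83 in POF against WT. The 3 calls among these 7 in POF against WT became 0 without WT replicate 3 or POF replicate 3 (limma; 4 at an unadjusted p under 0.05 in the full set). They became 1 when either replicate 2 of these groups was left out. The 2 in SSCTR against POF became 1 without POF replicate 3, and Ccrl2 in SSCTR against WT was not called without any 1 of the WT or SSCTR arrays.

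Enzymes and proteoglycans that trim or hold chemokines were tested for 9 genes. Dpp4, the peptidase that clips and inactivates Cxcl10 and Cxcl12, was at 6.84 and 7.18 in WT, 7.21 and 6.84 in SSCTR, and 8.38 and 8.55 in POF. WT and SSCTR shared a range and POF lay above it: 2.75-fold over WT (limma adjusted p = 0.00284), with SSCTR 2.71-fold lower than POF (limma adjusted p = 0.00247). Hs6st1, a heparan sulfate sulfotransferase, fell by 1.27 and Sdc1, a heparan sulfate proteoglycan, by 0.98 in POF against WT. Sdc1 (0.96) and Ext1 (0.85), an enzyme that builds heparan sulfate, rose in SSCTR against POF. In SSCTR against WT 0 of the 9 passed by limma, with 2 higher and 1 lower at an unadjusted p under 0.05. The 3 calls in POF against WT became 1 without WT replicate 2, WT replicate 3 or POF replicate 3.
Downstream signalling genes of chemokine receptors formed a further list. Of 25 tested, 1 was called in POF against WT, 2 in SSCTR against POF and 1 in SSCTR against WT. The medians were -0.15, 0.08 and -0.05. Over all features 11.9%, 12.6% and 3.31% were called in these comparisons. Foxo3, a transcription factor acting below PI3 kinase that also holds primordial follicles dormant in the oocyte, fell by 1.95 in POF and by 1.75 in SSCTR against WT. In SSCTR against POF Was, an actin regulator of blood cells, fell by 1.29 and Rgs2, a brake on G protein signalling, rose by 0.74; neither call held without either SSCTR array or without POF replicate 3.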

How the data were processed

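Total RNA came from a Trizol extraction with column clean-up and DNase, and was hybridised as biotinylated cRNA, per the labels' protocols. The authors deposited 2 tables of 9 columns. Per the file headers, the first gives an average signal, an intensity on a linear scale, and a detection p-value. For the replicate 1 columns these detection values exceed 1 and were taken as a score in the deposited table. The sorted intensity values of the other 6 arrays lie within 0.541% of each other, so the deposited signals were already brought to 1 distribution. The replicate 1 intensity equals the average of the 2 other replicates of its group multiplied by 1 of 6 (WT), 17 (SSCTR) or 9 (POF) factors, so it was left out. The second deposited table holds normalized intensity values and served as an alternative. The submitters' processing notes name GenomeStudio; its version, the chip and a genome build are not given in the sources used here.

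Single gene symbols were carried by 34885 probes, several by 18 and none by 10378; 34807 symbols were checked through Entrez identifiers. Here the intensities went through neqc of limma 3.58.1 in R 4.3.3 (normexp by detection p, offset 16, quantile normalization, log2); the offset understates changes of dim genes. Probes with a detection p under 0.05 on at least 2 of 6 arrays entered (19394), and the probe with the highest mean stood for its gene, giving 13872 features, of which 11053 are named genes. All 3 groups were fitted in 1 limma model (prior degrees of freedom 5.64, residual 3), two-sided, with Benjamini-Hochberg adjustment over all features and a threshold of 0.05. Only 2 arrays a group limit the precision. Where the dimmer group was below background on 1 or both arrays, the fold is a bound: each of its arrays takes the higher of the probe's value and the array's lowest detected signal. Summed list levels are sums of background-corrected intensities, offset included, and are also given without the brightest gene for some lists, after the sums had been seen. Replicate numbers did not pair the arrays (correlations of same-numbered deviations -0.0171, -0.0628 and -0.00259).

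Members and lists were chosen with earlier results of these data known. Named with values are every member called in a comparison and members above background on all 6 arrays. For each list described they include the 2 largest called changes in each direction, in the comparisons the text gives for it. The mast cell, B and plasma cell and dendritic cell lists are given by count only. The other tested members are given by range. The levels of Ccl5, Ccl17, Cxcr5, Cdh1 and Epcam, the values of Csf1r and Adgre1, and other single array values were picked after they were seen. The test was checked on simulated data. Alternatives varied the background correction, offset, detection filter, probe rule, prior, columns, replicate block and the set of arrays.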

Additional observations from a re-analysis of the deposited data

How the results depend on the processing

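No member changed sign at a called value: 12 called changes had 187 values under alternative settings, of which 147 stayed past the threshold with the same direction. Both Ackr1 calls, Cxcl16 in POF against WT, and Cxcl9 and Cxcl10 in SSCTR against POF passed under every alternative in which they were tested. For the 75 changes not called, 60 of 1133 alternative values passed, and 48 had the other sign, all from changes between -0.27 and 0.33 and none of them past the threshold. Counts of called members, 6, 4 and 2 in POF against WT, SSCTR against POF and SSCTR against WT, became 14, 9 and 12 with all 9 deposited columns, which count computed columns as replicates. In SSCTR against WT the count was 4 with a detection p under 0.01 required on all 6 arrays, 5 with an intensity trend in the prior, without background correction, with an offset of 50 or from the authors' normalized values, and 1 with no detection filter, with every probe tested or with a robust prior. Leaving out 1 array at a time gave 2 to 6, 3 to 5 and 0 to 1 members. With the replicate number as a block the counts were 7, 4 and 2, and the block ended both calls in SSCTR against WT, Ccl21a (adjusted p = 0.0554) and Ccl6 (adjusted p = 0.0651), where Ccl4 (adjusted p = 0.0461) and Cxcl1 (adjusted p = 0.0447) passed instead. Numbers alone do not show pairing. Cx3cl1 in POF against WT lost its call when no background was corrected (-0.29, adjusted p = 0.0751), in the deposited normalized values (adjusted p = 0.0755) and with the trend (adjusted p = 0.0632), and Cxcl12 without the detection filter (adjusted p = 0.0685). Of 864 counts for the other lists, 265 moved by over 1.5 times, most on small counts. The cause of these shifts was not tested, and genes near background carry the least information.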
